A study of Mus musculus with 2 samples.

Results

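AP-1 and early response factors were described in the vaginal wall of estrogen-treated mice. The set held 10 genes, *Fos*, *Fosb*, *Fosl1*, *Fosl2*, *Jun*, *Junb*, *Jund*, *Atf3*, *Egr1* and *Ier2*, of 18194 genes named on the array, and its members were the 14 probe sets annotated to exactly 1 of these genes. The rule names the genes and uses no measured value, although the set was proposed with earlier results of these data known. RNA from whole vaginal tissue of Fbln5-/- mice and of WT mice was hybridized to Affymetrix mouse expression arrays with 45101 probe sets, 1 array per genotype. The Fbln5-/- mice lack fibulin-5, a protein needed for elastic fiber assembly, and the labels give the strain of both groups as C57/Bl6. The females of both genotypes are labeled as 6 months old, ovariectomized and given estradiol at 50 µg/kg/d for 3 d. The labels also give 11 d for the ovariectomy, and whether this is an age or a length of time is not settled here. The methods place estradiol 2 weeks after ovariectomy. The methods give 2 animals in each group, and whether their RNA was pooled on the array is not stated. With 1 array per genotype no difference has a replicate check, so no p-value or error between animals is given, and the precision of each ratio is limited by the number of arrays.

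Activator protein 1 (AP-1) is a dimer of basic leucine zipper proteins. Jun proteins pair with each other or with Fos proteins, Fos proteins need a Jun partner, and the dimer binds the sequence TGANTCA, in which N is C or G. Most of these genes are early response genes, transcribed within minutes of a growth factor, hormone or stress signal and silenced soon after, with short-lived transcripts. In the rodent uterus estradiol induces *Fos* and *Jun* rapidly, and in mouse epidermis Jun proteins take part in the balance between keratinocyte growth and differentiation.

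Promoters are shown for *Junb*, the member with the largest difference between the arrays, for *Fos*, a classical early response gene that stayed within 2-fold, and for *Atf3*, whose signal lay on opposite sides of the limit of 100. The windows run from 250 bases before to 50 bases after the annotated start (RefSeq, GRCm38.p6), and those of 7 of the 10 members were searched. *Fosl1* and *Ier2* had no window in the source, and the window of *Egr1* was left out of the search. Capitals mark TGACG on either strand, the half-site of the cAMP response element (CRE), and the TATA element TATAAA on either strand. Both were searched after the windows had been read, so their shares beside all windows are a description and no test of enrichment.
Junb, chr8:84978699-84978998, minus strand: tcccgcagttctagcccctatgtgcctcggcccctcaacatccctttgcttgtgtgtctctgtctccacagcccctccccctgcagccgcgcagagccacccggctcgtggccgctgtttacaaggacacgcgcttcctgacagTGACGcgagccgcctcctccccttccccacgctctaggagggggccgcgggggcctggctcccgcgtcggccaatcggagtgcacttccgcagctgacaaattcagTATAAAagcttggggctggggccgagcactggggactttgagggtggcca
Fos, chr12:85473640-85473939, plus strand: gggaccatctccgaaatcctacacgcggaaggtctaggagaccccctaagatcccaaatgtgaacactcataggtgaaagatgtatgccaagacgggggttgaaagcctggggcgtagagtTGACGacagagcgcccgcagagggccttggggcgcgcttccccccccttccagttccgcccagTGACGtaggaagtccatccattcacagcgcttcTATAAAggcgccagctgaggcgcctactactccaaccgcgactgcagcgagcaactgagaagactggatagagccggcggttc
Atf3, chr1:191183284-191183583, minus strand: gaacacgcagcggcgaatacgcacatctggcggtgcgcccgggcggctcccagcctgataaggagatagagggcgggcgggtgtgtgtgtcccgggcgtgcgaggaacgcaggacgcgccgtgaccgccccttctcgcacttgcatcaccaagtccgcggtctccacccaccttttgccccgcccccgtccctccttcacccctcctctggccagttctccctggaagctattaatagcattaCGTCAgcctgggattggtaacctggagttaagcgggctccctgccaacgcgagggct
The TGACG half-site was in 4 of the 7 member windows, those of *Fos*, *Fosb*, *Junb* and *Atf3*, against 20.8% of all 32851 windows of the same length. TATAAA was in the windows of *Fos* and *Junb*, against 13.6% of all windows. None of the 7 member windows searched held an exact AP-1 site (TGANTCA with C or G as N, 5.2% of all windows) or a complete CRE (TGACGTCA, 1.79%). They also held no CArG box, the site of serum response factor (1.63%), and no EGR site GCGTGGGCG (0.612%). Each pattern was read on both strands, and none contains another apart from the TGACG half-site within the complete CRE. *Egr1* is not among these 7, so nothing is said of its promoter. A missing match says only that these letters are not in the window. TATAAA began 33 bases before the annotated start in *Fos* and at that start in *Junb*, so the 2 matches do not lie at the same position.

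Signals were MAS5 intensities scaled to a common median, and readings under 100 in both genotypes were left out, as in the methods. Genes and probe sets that reached 100 in both genotypes are called doubly detected. *Fbln5*, the targeted gene, had signals of 30.4 on the Fbln5-/- array and 410.4 on the WT array at its brighter probe set, at least 4.10-fold lower, although no source used here places that probe set inside or outside the deletion. Control probe sets along 2 housekeeping genes differed by their position. All log2 ratios are Fbln5-/- over WT. For *Gapdh* it was 0.05 at the 3′ end, -1.16 in the middle and -4.44 at the 5′ end, and for *Actb* at the same positions it was -0.18, -1.22 and -1.87. The position of the member probe sets within their transcripts was not analysed here, and the part of the 5′ difference in any decrease was not tested. Markers of vaginal tissue were present. Keratin and other stratified epithelium markers (9 genes), smooth muscle markers (6) and fibroblast markers (6) were doubly detected and within 2-fold. Among other cell types, both adipocyte markers measured (*Adipoq* and *Fabp4*), and 2 of 5 macrophage markers, had signals at least 2-fold higher in Fbln5-/- tissue, with summed signals of the adipocyte list of 6949 for Fbln5-/- and 2127 for WT and of the macrophage list of 7593 for Fbln5-/- and 4687 for WT. In the neutrophil list the summed signal was 5732 for Fbln5-/- and 1928 for WT. Its genes *S100a8* (4372 for Fbln5-/- and 1198 for WT) and *S100a9* (1231 for Fbln5-/- and 422.5 for WT) were at least 2-fold higher. *Ngp* (47.5 for Fbln5-/- and 124.7 for WT) and *Camp* (27.4 for Fbln5-/- and 111.2 for WT) passed the limit only on the WT array and not by enough for a 2-fold bound. The neutrophil gene *Mpo* (53.9 for Fbln5-/- and 71.9 for WT) and the adipocyte genes *Cidec* and *Lep* were under 100 on both arrays. The part of these cells in the member signals was not tested, and in whole tissue fewer cells of a type and less RNA per cell cannot be told apart.

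Of the 14 member probe sets, 11 passed the limit on at least 1 array, 10 of them on both arrays, and these 11 represented 9 of the 10 genes. *Fosb* was under 100 on both arrays. Of the 11, 2 were at least 2-fold lower on the Fbln5-/- array, *Junb* and *Ier2*, against a background of 8.52% of all 21508 probe sets that passed. A single one, *Atf3*, was at least 2-fold higher as measured, against a background of 6.49%. Counted as genes by the brightest probe set, 2 of 9 were lower and 1 was higher, against 4.77% and 7.21% of 11934 genes. *Atf3* passed the limit only on the array where it was higher, and with signals under 100 set to 100 it was within 2-fold. The other 8 doubly detected probe sets had log2 ratios from -0.45 to 0.50. Over all genes 861 were higher and 569 lower, a split that turned to 679 and 698 when the median ratio of doubly detected probe sets was set to 1.

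**Figure D1:**
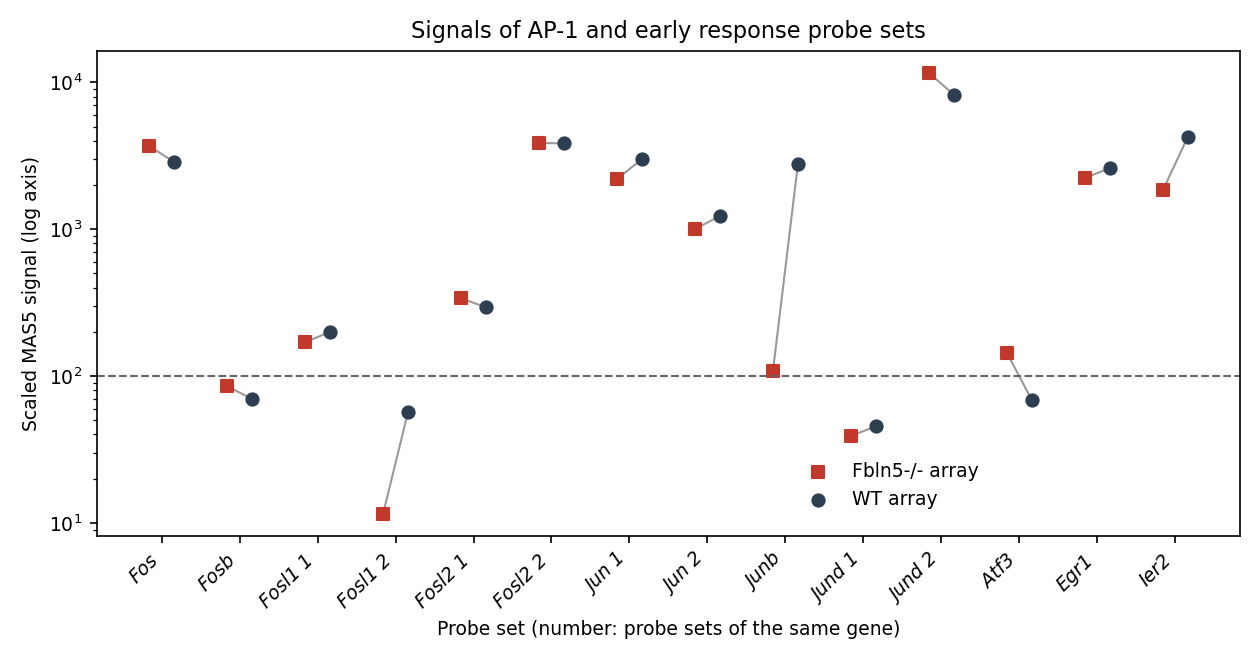
Scaled MAS5 signal (log axis) of the 14 member probe sets on the Fbln5-/- array (squares) and the WT array (circles), 1 array each, with a dashed line at 100 and a number after the gene where it has several probe sets. *Junb* has 108.2 on the Fbln5-/- array and 2780 on the WT array, and most other pairs lie close together.

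The Jun family held the widest range. *Junb*, a Jun protein that often restrains the activity of Jun itself, had a signal of 108.2 on the Fbln5-/- array and 2780 on the WT array. The Fbln5-/- signal was just above the limit of 100. The log2 ratio was -4.68, a 25.7-fold lower signal, measured by a single probe set that could not be compared with a second. Among the 10990 doubly detected genes, this was the lowest log2 ratio, and among all 11934 genes measured, 12 including *Junb* were this low. Of the 4078 probe sets whose WT signal lay between 1390 and 5560, within 2-fold of that of *Junb*, 19 including *Junb* were this low (0.466%). *Junb* therefore belonged to a small group of probe sets on these arrays. On the same arrays the log2 ratio of the *Gapdh* control was -4.44 at the 5′ end and 0.05 at the 3′ end.

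*Jun*, the founding member of the family and the most common partner of Fos, was represented by 2 probe sets. The brighter had signals of 2197 on the Fbln5-/- array and 2999 on the WT array (log2 ratio -0.45). The other had signals of 1003 on the Fbln5-/- array and 1228 on the WT array (log2 ratio -0.29). Both lay slightly lower on the Fbln5-/- array, and their log2 ratios were 0.16 apart, less than the pooled SD of 0.52 between probe sets of 1 gene over 4114 genes. *Jund*, the Jun protein made steadily in resting cells, had signals of 11610 on the Fbln5-/- array and 8225 on the WT array (log2 ratio 0.50). Its second probe set had signals of 39.2 on the Fbln5-/- array and 45.4 on the WT array, both under 100, so no ratio is given. The difference in log2 ratio was -4.23 for *Junb* minus *Jun* and -5.18 for *Junb* minus *Jund*, which no linear scaling of the arrays changes.

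The Fos family stayed within 2-fold wherever it could be measured. *Fos*, an early response gene of the family, had signals of 3677 on the Fbln5-/- array and 2873 on the WT array (log2 ratio 0.36, 1 probe set). *Fosl2*, which encodes Fra-2, had signals of 3867 on the Fbln5-/- array and 3841 on the WT array at its brighter probe set (log2 ratio 0.01). Its other probe set had signals of 338.1 on the Fbln5-/- array and 294.3 on the WT array (log2 ratio 0.20). Both probe sets of *Fosl2* were thus nearly level between the genotypes, with log2 ratios 0.19 apart. *Fosl1*, which encodes Fra-1 and is often raised in migrating epithelium, had signals of 169.9 on the Fbln5-/- array and 199.8 on the WT array (log2 ratio -0.23). Its second probe set was under 100 on both arrays, with 11.5 for Fbln5-/- and 56.8 for WT. *Fosb* had signals of 85.2 on the Fbln5-/- array and 69.8 on the WT array, so no ratio is given. No Fos family gene approached the difference of *Junb*, and the log2 ratio of *Fos* lay 5.04 above that of *Junb*.

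Among the other members, *Ier2*, an early response gene for a nuclear protein of growth factor signaling, had signals of 1840 on the Fbln5-/- array and 4252 on the WT array. The signal was 2.31-fold lower (log2 ratio -1.21), again at a single probe set. A log2 ratio this low was found for 6.59% of the 21508 probe sets, and for 4.62% of the 3071 whose WT signal lay within 2-fold of that of *Ier2*. Counted as genes by the brightest probe set, 257 of the 10990 doubly detected genes and 400 of all 11934 were this low, including *Ier2*. *Egr1*, the zinc finger factor that is induced by many of the same signals as *Fos*, had signals of 2234 on the Fbln5-/- array and 2600 on the WT array (log2 ratio -0.22). *Atf3*, a stress-induced factor that pairs with Jun proteins, had signals of 143.6 on the Fbln5-/- array and 68.7 on the WT array, at least 1.44-fold higher when the WT signal is taken as 100. *Egr1* thus differed by less than 2-fold, as did *Fos*, with a log2 ratio of *Egr1* minus *Fos* of -0.57, while the early response gene *Ier2* was past 2-fold.

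**Figure D2:**
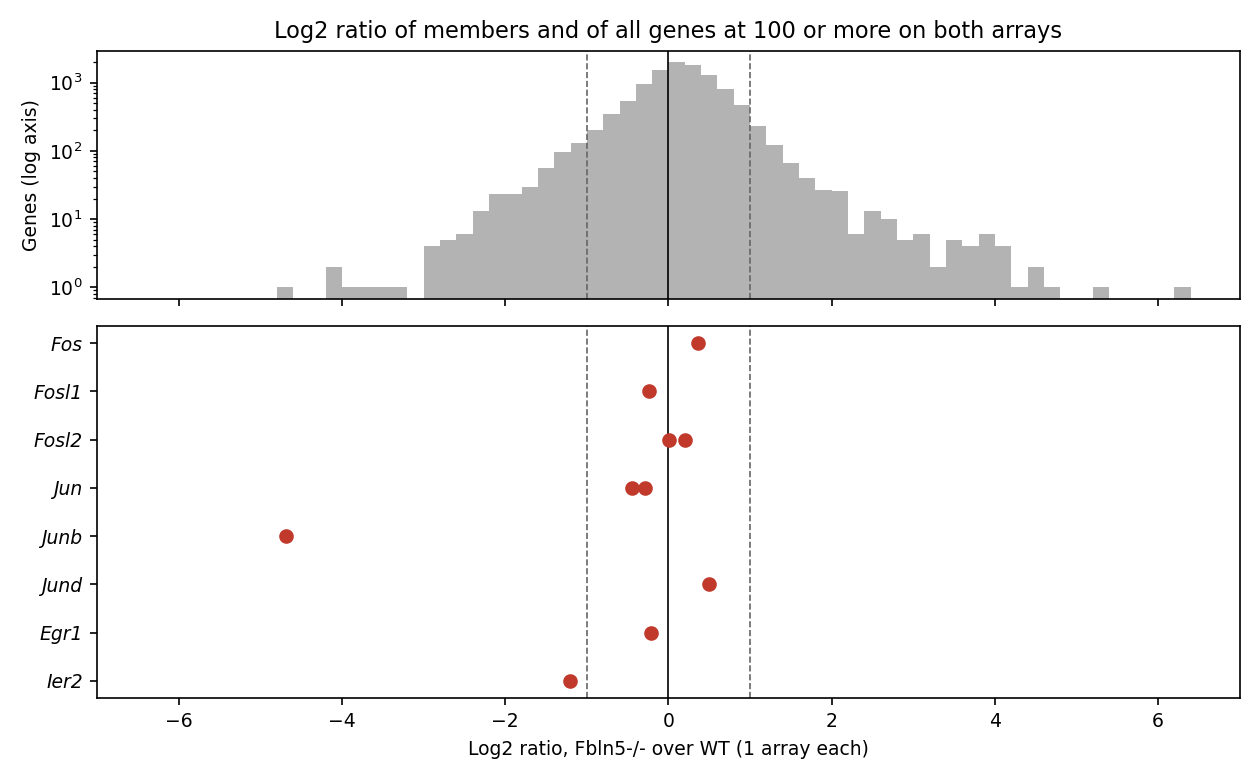
Upper panel, number of genes (log axis) by log2 ratio of Fbln5-/- over WT for the 10990 genes that reached 100 in both genotypes, each at its brightest probe set. Lower panel, every member probe set that reached 100 in both (1 point each), with dashed lines at a 2-fold difference. *Junb* (-4.68) lies at the lower end of the distribution, *Ier2* (-1.21) just past 2-fold, and the others near its middle.

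The median log2 ratio of the 9 genes measured was -0.22, against 0.16 over all 11934 genes, and 6 of the 9 lay below the median of all genes. For the 8 doubly detected members the median was -0.23, against 0.15 over 10990 genes. Of these 8 genes, 6 were within 2-fold, as were 91.1% of all doubly detected genes. The scaling moved these values little. Over 5 scalings the log2 ratio of *Junb* ran from -4.79 to -4.68 and that of *Ier2* from -1.31 to -1.21. *Fos* and *Jund* stayed above 0 and *Jun*, *Fosl1* and *Egr1* below 0, while the brighter *Fosl2* probe set was at 0.01 with the common median and between -0.10 and -0.04 under the other 4. With the median ratio of doubly detected probe sets set to 1, the median of the members was -0.32 and that of all genes 0.05, so both moved down together.

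**Figure D3:**
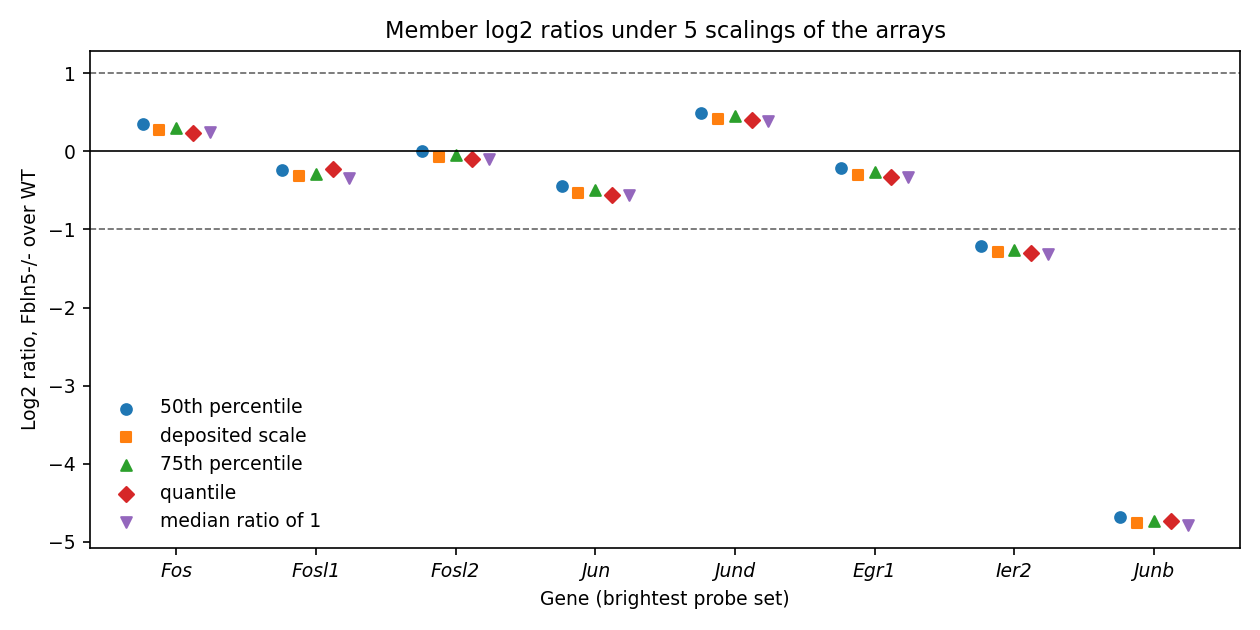
Log2 ratio of Fbln5-/- over WT of the 8 doubly detected members, at the brightest probe set, under 5 scalings of the arrays (symbols), with dashed lines at a 2-fold difference. *Junb* (-4.79 to -4.68) and *Ier2* (-1.31 to -1.21) stay past 2-fold under all 5, and *Fosl2* is the gene that crosses 0.

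Other genes of the same response were read from 5 lists. Of 44 other early response genes measured, 6 had an increase of at least 2-fold in Fbln5-/- tissue and 2 a decrease (13.6% and 4.55%, against 7.21% and 4.77% of all genes, and 4 and 1 genes when signals under 100 were raised to 100), with a median log2 ratio of 0.25 against 0.16 over all genes. *Ccn2*, a matricellular growth factor formerly named Ctgf, had signals of 2635 on the Fbln5-/- array and 429.3 on the WT array (log2 ratio 2.62). *Plk3*, a stress-responsive kinase, had signals of 498.9 on the Fbln5-/- array and 173.4 on the WT array (log2 ratio 1.52). *Egr3*, a relative of *Egr1*, was at least 3.36-fold higher, with 336.1 for Fbln5-/- and 59.9 for WT. *Gadd45g*, a growth arrest and stress gene, had the largest decrease among the doubly detected genes of this list, with signals of 877.9 on the Fbln5-/- array and 3718 on the WT array (log2 ratio -2.08). The other decrease of at least 2-fold as measured was that of *Egr4*, named after its values were seen, which passed the limit only on the WT array (41.2 for Fbln5-/- and 104.1 for WT, at least 1.04-fold lower). Among doubly detected genes the orphan receptor gene *Nr4a1* came next with a log2 ratio of -0.98, within 2-fold. Early response genes thus lay on both sides, and 36 of the 44 stayed within 2-fold.

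Partners that dimerize with or resemble AP-1 proteins had calls in both directions. Of 19 other bZIP genes measured, 2 were past 2-fold upward and 2 downward (10.5% each, against 7.21% and 4.77% of all genes, and 1 and 2 genes when low signals were raised to 100), with a median log2 ratio of -0.01 against 0.16 over all genes. *Bach1*, a repressor of antioxidant genes, had a log2 ratio of 1.01, just past the threshold of 1, and *Maff*, a small Maf protein, one of 0.95. *Atf5* had signals of 769.4 on the Fbln5-/- array and 2249 on the WT array (log2 ratio -1.55), and *Nfe2l1*, which controls proteasome genes, had a log2 ratio of -1.43. Jun dimerization protein 2 (*Jdp2*), named after its values were seen, had signals of 4785 on the Fbln5-/- array and 5003 on the WT array. The log2 ratio of *Junb* was lower than that of any of these bZIP genes at its brightest probe set.

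Kinases and factors upstream of the early response genes had a median log2 ratio of 0.39 over 15 genes, against 0.16 over all genes. At the brightest probe set of each gene, 2 of the 15 were at least 2-fold higher (13.3%, against 7.21% of all genes) and 0 lower (against 4.77%). The 2 higher genes were *Map2k4*, a kinase of the Jun N-terminal kinase pathway (1.02), and *Elk4*, a partner of serum response factor (1.01). Both lay just past the log2 threshold of 1, and the counts of the related lists were not made under the other scalings. The other measured probe sets of these 2 genes had log2 ratios of -0.70 and -0.11. A less bright probe set was lower for *Mapk14* (52.9 for Fbln5-/- and 451.4 for WT, at least 4.51-fold). The same held for *Elk3* (68.5 for Fbln5-/- and 205.8 for WT, at least 2.06-fold). A less bright probe set of *Mapk8* was higher (136.3 for Fbln5-/- and 48.0 for WT, at least 1.36-fold). These genes were named after their values were seen. *Mrtfa*, a coactivator of serum response factor, had a log2 ratio of -0.93, and *Rps6ka5*, a kinase of nuclear proteins, one of -0.28. Among 6 regulators measured, *Cops5*, a signalosome subunit first described as a Jun coactivator, was the 1 past 2-fold (1 of 6 lower, against 4.77% of all genes), with signals of 1957 on the Fbln5-/- array and 4816 on the WT array (log2 ratio -1.30). *Nab2*, a corepressor of EGR proteins, had a log2 ratio of -0.85, and the mRNA decay factors *Zfp36l1* and *Zfp36l2* had log2 ratios of 0.56 and 0.24.

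Of 13 genes known as AP-1 targets that were measured, 2 had an increase of at least 2-fold and 2 a decrease (15.4% each, against 7.21% and 4.77% of all genes, and 2 and 1 genes when low signals were raised to 100). Their median log2 ratio was 0.27 against 0.16 over all genes. *Ivl*, the cornified envelope precursor involucrin, had signals of 1341 on the Fbln5-/- array and 520.9 on the WT array (log2 ratio 1.36), and the stromelysin gene *Mmp3* was at least 2.03-fold higher. *Plaur*, the urokinase receptor, had signals of 199.9 on the Fbln5-/- array and 455.6 on the WT array (log2 ratio -1.19). *Timp1*, a metalloprotease inhibitor, had a log2 ratio of 0.58. *Ccnd1*, which encodes cyclin D1, had 3 probe sets with log2 ratios of -0.34, -0.70 and 0.86, on both sides of 0.

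**Figure D4:**
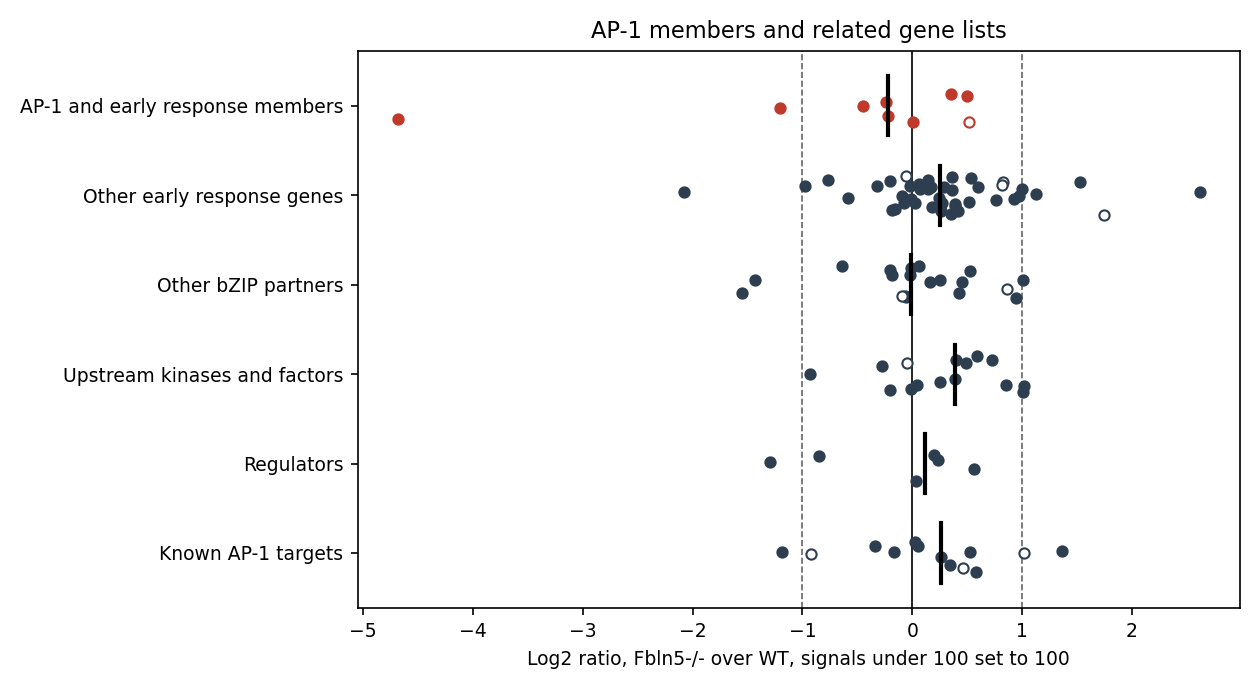
Log2 ratio of Fbln5-/- over WT (1 array each), with signals under 100 set to 100, for the 9 measured members and the 5 related lists. Doubly detected genes are filled, genes that reached 100 in a single genotype are open (their ratio is a bound), bars give the median of each list, and a 2-fold difference is dashed. Each gene is shown at its brightest probe set only. At these probe sets *Junb* (-4.68) lies apart from all genes of the 5 lists, whose lowest value is that of *Gadd45g* (-2.08). Probe sets not shown can be lower, such as the other one of *Cebpb* (-3.63).

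Probe sets of 1 gene did not always move together in the related lists. Of 36 genes with several doubly detected probe sets, 33 had their brightest within 2-fold. In 5 of these 33 another probe set was at least 2-fold lower, and in 0 was another at least 2-fold higher. Counted over probe sets that passed in a single genotype as well, another probe set was lower in 9 of 34 genes and higher in 1 (7 and 0 when low signals were raised to 100). The same share over all genes with several probe sets was not counted, so whether this split is particular to these lists cannot be told. The 2 widest gaps among doubly detected probe sets are given here, chosen after the values were seen. *Cebpb*, a bZIP factor of inflammation and keratinocyte differentiation, had signals of 4500 on the Fbln5-/- array and 4685 on the WT array at its brightest probe set (log2 ratio -0.06). At its other probe set the signals were 126.8 on the Fbln5-/- array and 1569 on the WT array (log2 ratio -3.63). *Zfp36l1* had log2 ratios of 0.56 and -2.40. One probe set of *Cebpb* was thus far lower on the Fbln5-/- array, though less so than that of *Junb*, while the other was level. For *Junb* and *Ier2* these arrays hold 1 annotated probe set each, so no such comparison could be made.

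*Ier2* and *Junb*, the 2 lower members, lie on chromosome 8 with 17 protein-coding genes between them in the GRCm38.p6 gene table. Of these, 14 were measured, 2 past 2-fold upward and 3 downward, against 7.21% and 4.77% of all genes, with a median log2 ratio of -0.00 against 0.16 over all genes (1 and 3 when low signals were raised to 100, with a range from -2.21 to 1.11). The 3 lower genes, all doubly detected and named after their values were seen, were *Gadd45gip1* (-2.21), *Farsa* (-1.50) and *Trmt1* (-1.40). The 2 higher genes were *Dnase2a* (1.11), doubly detected, and *Dand5*, which passed the limit only on the Fbln5-/- array (111.2 for Fbln5-/- and 31.5 for WT). *Calr*, which encodes the chaperone calreticulin, had signals of 11935 on the Fbln5-/- array and 12208 on the WT array. *Fos* lies on chromosome 12 with *Fbln5*, with 83 protein-coding genes between them. Of these, 45 were measured, with a median log2 ratio of 0.18, 3 higher and 2 lower.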

How the data were processed

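Signal intensities were deposited by the authors for 1 array per genotype on a linear scale, made with MAS5 per the labels, whose version is not given in the sources used here. Their mean, after trimming 2% of probe sets at either end, was 500.0 for both genotypes. The arrays were brought to 1 shared median (factors 1.03 for Fbln5-/- and 0.972 for WT), after the 50th percentile normalization of the methods, and probe sets that reached 100 in at least 1 genotype were kept, without the 64 control probe sets. 1 signal of 0 was set to 0.1. Detection calls were not used here.

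Names came from the annotation of the platform (34958 with 1 gene symbol, 932 with several and 9211 not listed). A gene was represented by its probe set with the highest mean signal. A fold is a bound against 100 where 1 array was under it, and none is given where both were. No test was made, with 1 array per genotype. The steps were tested on simulated data. The differences were planted in bright probe sets only, so planted differences near 100 and differences along a transcript were not covered. The members and the related lists were chosen with earlier results of these data known. Named were all members and, per list, the 2 largest increases and the 2 largest decreases among genes that reached 100 in both genotypes and up to 2 bounds per direction of at least 2-fold. Of the 111 listed related genes, 97 were measured. The alternatives were other scalings, other filters, signals under 100 raised to 100, an offset of 32, other fold thresholds and other rules for choosing probe sets. The software was matplotlib 3.10.9, pandas 2.3.3, numpy 2.4.6 and scipy 1.17.1 under Python 3.11.15.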

Additional observations from a re-analysis of the deposited data

How the results depend on the processing

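Under 13 alternatives, 233 of 251 values stayed the same within the limits used (a factor of 1.5 for counts and the SD of 0.52 between probe sets of 1 gene for log2 ratios), 18 moved and none changed sign from past 2-fold. This count is not a measure of robustness. Filters leave the ratio of a probe set as it is, and a gene with 1 measured probe set enters both as gene and as probe set. The limit of 0.52 is also larger than the log2 ratio of every doubly detected member within 2-fold. *Junb* ranged from -4.79 to -4.33 and *Ier2* from -1.31 to -1.19, and both were at least 2-fold lower under every alternative apart from the 3-fold threshold, at which *Junb* alone was left, 1 probe set and 1 gene. The single higher member, *Atf3*, rests on a WT signal under 100. The count of higher probe sets and of higher genes fell to 0 on the deposited scale, with the median ratio set to 1, at 100 or more on both arrays, at 200 or more on at least 1 array, with signals under 100 set to 100, with 32 added and at the 3-fold threshold. With signals under 100 set to 100 its log2 ratio was 0.52. Without a filter the median of the 10 members was -0.10. No paired analysis was possible because each genotype has 1 array, and no replicate could be left out. Signals near 100, such as that of *Junb* on the Fbln5-/- array, limit how exactly a large ratio can be given.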
